A study of Homo sapiens with 5 samples.

Results

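The sarcomere and muscle contractile genes were followed in Rh41, a human alveolar rhabdomyosarcoma cell line of the fusion-positive class, after knockdown of H3F3A, 1 of the 2 genes that encode the replication-independent histone H3.3. The set was a fixed list of 59 gene symbols, found as 59 of the 43714 gene rows by exact name. The list names genes by function and its rule uses no measured value, but it was drawn up with earlier results of these data known. Poly-A RNA was sequenced 48 h after transfection with Lipofectamine RNAiMAX. The 2 control libraries (replicates 1 and 3) received a scrambled siRNA, and the 3 knockdown libraries (replicates 1, 2 and 3) received an siRNA specific for H3F3A. All 5 libraries came from the same line, and the labels describe 1 siRNA against the target.

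A sarcomere is the contractile unit of striated muscle. Thick filaments of myosin slide along thin filaments of actin, and calcium binding to the troponin complex moves tropomyosin to open the sites where myosin attaches. Thin filaments are anchored at the Z-disc and thick filaments at the M-band, with titin spanning from one to the other. Many of these proteins exist as embryonic or fetal, slow or cardiac, and adult fast forms that replace each other as muscle matures, and rhabdomyosarcoma cells carry such muscle genes without building ordinary muscle.

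Assigned counts were 28493573 to 30705963 per library. H3F3A itself had 8571 and 7983 counts in the scrambled libraries and 280, 304 and 264 counts in the H3F3A siRNA libraries, a log2 change of -4.89. H3F3B, the other H3.3 gene, had 24466 and 23833 against 24444, 22946 and 26168 counts. Its log2 change was -0.0035 and it was not called. Of 14 rhabdomyosarcoma and skeletal myogenic markers, 12 were measured, including MYOD1 and MYOG, the myogenic transcription factors used to identify this tumour, while MYF5 and MYF6 had at most 1 count in any library. The summed level of that list was 5253 to 6236 CPM (counts scaled to library size) in the scrambled libraries. In the knockdown libraries it was 4579 to 4683 CPM. None of the marker sums given here is corrected for GC content. With GC correction MYOD1 went from -0.29 to -0.08 log2, and CDH15, another gene of the list, from -0.33 to -0.11. The median log2 fold change of the list went from -0.07 to -0.01. Of its 12 measured genes 1 was called lower, FGFR4, and none higher. FGFR4 had 2184 and 1783 against 1390, 1398 and 1428 CPM, at -0.50 log2 (edgeR adjusted p 0.00257). With GC correction it was called too, at -0.32 (edgeR adjusted p 0.00681). Without H3F3A siRNA replicate 1 FGFR4 was not called (edgeR adjusted p 0.0838). Of the smooth muscle markers the defining myosin MYH11 was at 0 in every library, while SMTN, a smooth muscle cytoskeletal gene, had 117 to 165 CPM. The sums were 921.3 to 1140 against 822.8 to 865.1 CPM for 10 smooth muscle markers, a list that holds DES itself. Of its 8 measured genes 1 was called lower, TAGLN, at -0.52 log2 (edgeR adjusted p 0.0391), and none higher. With GC correction TAGLN was not called, at -0.46 (edgeR adjusted p 0.072). Without scrambled replicate 1 it was at -0.34. The median log2 fold change of the smooth muscle list went from -0.21 to -0.06 with GC correction. The sums were 125.1 to 156.7 against 112.2 to 121.4 CPM for 8 cardiac markers, of which TBX5 was at 0 in every library and none of the 4 measured was called. NKX2-5, a cardiac transcription factor, made up most of that sum, with 150.2 and 119 against 114, 109 and 107 CPM. Its log2 fold change was -0.29, and -0.07 with GC correction. For 8 fibroblast markers the sums were 1282 to 1410 against 1296 to 1356 CPM, most of it COL3A1 (log2 fold change 0.02). Of the 5 measured fibroblast markers 4 were below 0, with a median of -0.28, and 2 were called lower, COL1A1 (-0.36, edgeR adjusted p 0.0410) and PDGFRB (-0.36, edgeR adjusted p 0.0162). The background for each of these marker lists is that 2.69% of all tested genes were called lower and 0.504% higher. Of the 15859 tested genes 7713 were below 0. With GC correction PDGFRB was called (edgeR adjusted p 0.0334) and COL1A1 was not (0.164). Without H3F3A siRNA replicate 1 neither was called (edgeR adjusted p 0.159 and 0.224). The part of these marker levels in the results below was not tested.

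After knockdown, 2 contractile genes fell and 2 rose, all by less than 1.5-fold. Each of these 4 calls was lost without scrambled replicate 1 (edgeR adjusted p 0.124 to 0.226) and without H3F3A siRNA replicate 1 (edgeR adjusted p 0.0591 to 0.172), and that of TTN also with a correction for GC content (0.0754). MYL4, the embryonic and atrial essential myosin light chain, and TNNT2, the cardiac and fetal troponin T, were lower. TTN, which encodes the giant spring protein titin, and KLHL41, a kelch protein that stabilises nebulin and thin filaments, were higher. The remaining 38 measured members did not pass the test. In bulk RNA, fewer cells that carry a transcript and less of it per cell cannot be told apart.

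Of the 59 members, 42 passed the filter on low counts. The 4 calls (edgeR quasi-likelihood test, Benjamini-Hochberg adjusted p under 0.05 over 15859 genes) stand beside a background in which 3.2% of all tested genes were called, 2.69% as lower and 0.504% as higher. The groups did not overlap in CPM for 15 members, 10 lower and 5 higher, where 33.1% of all genes were without overlap, 17.1% lower and 16% higher. An unadjusted p under 0.05 was reached by 10 members, against 16.8% of all genes. The median log2 fold change was -0.03 over the 42 measured members and 0.01 over all tested genes. Of the 42 members 24 lay below 0, as did 7713 of the 15859 tested genes.

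Levels between genes were compared as CPM per kilobase of transcript. By that measure thin filament genes led in Rh41 cells. TNNT1, the slow skeletal troponin T, had a mean of 1056 CPM per kb in the scrambled libraries and TPM2, the beta tropomyosin, 651 CPM per kb. DES, the muscle intermediate filament protein, followed at 371, TPM3, the slow alpha tropomyosin, at 314, and ACTC1, the cardiac alpha-actin of early skeletal muscle, at 252 CPM per kb. Of the thick filament genes MYL6B, an essential light chain of slow skeletal and nonmuscle myosin, was the highest at 204 CPM per kb, and 4 light chain genes led that group.

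**Figure D1:**
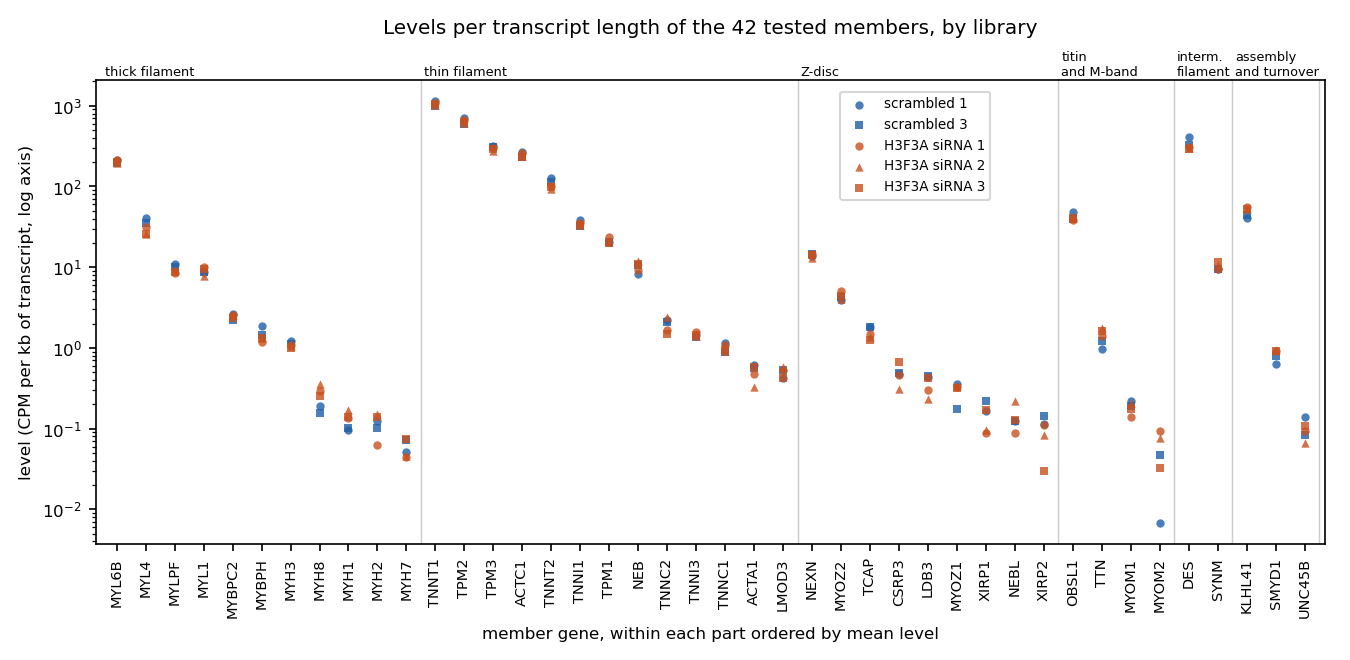
Level of each of the 42 measured members in the 5 libraries, in CPM per kb of transcript on a log axis, grouped by place in the sarcomere. Blue points are scrambled and orange points H3F3A siRNA libraries. TNNT1 and TPM2 sit at the top in all 5, and every myosin heavy chain gene lies below the myosin light chain genes.

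The 7 sarcomeric myosin heavy chain genes together reached 1.63 CPM per kb in the scrambled and 1.69 in the knockdown libraries. Troponin T genes reached 1180 and 1140 CPM per kb, tropomyosin genes 986 and 943, the muscle actins 253 and 245, and the essential light chains 250 and 239. Troponin I, the inhibitory subunit, was at 37 and 35.2 CPM per kb, while troponin C, which binds calcium, was at 3.18 and 2.84. The myosin motor was thus the least abundant of these families per length, with regulatory light chains at 10.6 and 8.8 and myosin binding proteins at 4.06 and 3.77 CPM per kb. Transcript models differ in how much noncoding sequence they hold. Per kb of coding sequence troponin I stood at 345 CPM and actin at 824 in the scrambled libraries, and the myosin heavy chains were again the lowest at 1.69.

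Of 17 thick filament members, 11 were measured, 1 was called lower and none higher, with a median log2 fold change of -0.01. MYL4 had 36.9 and 31.7 CPM in the scrambled libraries and 28.5, 23.6 and 23.3 CPM in the knockdown libraries. Every knockdown library was below both controls. The means were 34.3 ± 3.68 (SD, n = 2) and 25.1 ± 2.96 (SD, n = 3), and the log2 fold change was -0.45 with a standard error of 0.098, a 95% interval of -0.65 to -0.24 and an edgeR adjusted p of 0.0135.

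MYL6B, the most abundant gene of the same light chain family, had 278 and 253 CPM in the scrambled and 274, 255 and 261 CPM in the knockdown libraries. These values overlapped. Its log2 fold change was -0.01 with a 95% interval of -0.17 to 0.15. MYL1, the fast skeletal essential light chain, had 7.68 and 7.58 against 8.68, 6.86 and 8.15 CPM and also overlapped. MYLPF, the fast skeletal regulatory light chain, had 7.54 and 6.94 against 5.80, 6.24 and 5.92 CPM, without overlap, and missed the threshold at an edgeR adjusted p of 0.258.

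Among heavy chains the embryonic gene MYH3 was the most abundant, with 7.41 and 6.70 CPM in the scrambled and 6.53, 6.34 and 5.95 CPM in the knockdown libraries. The ranges did not overlap, but the log2 fold change of -0.17 did not pass the test (edgeR adjusted p 0.529). The perinatal gene MYH8 had 1.17 and 0.943 against 1.74, 2.17 and 1.52 CPM, higher in all 3 knockdown libraries. Its log2 fold change of 0.78 (95% interval 0.25 to 1.30) carried an edgeR adjusted p of 0.0957, so it was not called. MYH1, the adult fast IIx chain, was at 0.583 and 0.606 against 0.804, 1.03 and 0.841 CPM and was not called either (edgeR adjusted p 0.381). MYH2, adult fast IIa, and MYH7, the slow and cardiac beta chain, had overlapping values below 1 CPM.

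The myosin binding proteins, which tie myosin into the filament, were represented by 2 measured genes. MYBPH had 3.36 and 2.59 against 2.11, 2.38 and 2.36 CPM, and MYBPC2, the fast skeletal form, had 9.36 and 7.88 against 9.28, 9.20 and 8.38 CPM. Neither was called.

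The thin filament list had 17 members, 13 of them measured, with 1 called lower, none higher and a median log2 fold change of -0.05. TNNT2 had 170 and 151 CPM in the scrambled libraries and 135, 124 and 131 CPM after knockdown. All 3 knockdown libraries were below both controls. The means were 160 ± 13.4 (SD, n = 2) and 130 ± 5.34 CPM (SD, n = 3), a log2 fold change of -0.30 with a standard error of 0.077, a 95% interval of -0.46 to -0.14 and an edgeR adjusted p of 0.0326.

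The slow troponin T gene TNNT1 had 1317 and 1139 CPM in the scrambled and 1261, 1176 and 1209 CPM in the knockdown libraries. The groups overlapped, with a log2 fold change of -0.01 and a 95% interval of -0.18 to 0.15. TNNI1, the slow skeletal troponin I, had 208 and 177 against 191, 178 and 178 CPM. ACTC1 had 1001 and 862 against 966, 875 and 865 CPM, with a 95% interval of the log2 fold change of -0.22 to 0.13. Of the 95% intervals of these 3 abundant genes, the one of TNNI1 reached farthest from 0, to -0.25.

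The tropomyosins, which lie along actin, gave 976 and 838 against 923, 842 and 877 CPM for TPM2. TPM3 had 482 and 474 against 454, 421 and 447 CPM, without overlap but not called (edgeR adjusted p 0.457). TPM1, the fast alpha tropomyosin, had 21.3 and 21.7 against 24.7, 21.5 and 20.6 CPM. Tropomyosin genes also make nonmuscle transcripts, which gene counts do not separate from muscle ones. NEB, whose product nebulin runs along the thin filament, had 215 and 277 against 239, 309 and 284 CPM. The spread of NEB within each group was wide and the groups overlapped, with a log2 fold change of 0.17 and a 95% interval of -0.06 to 0.40. ACTA1, the adult skeletal actin, had less than 1 CPM in every library, and TNNC1, TNNC2, TNNI3 and the thin filament nucleator LMOD3 lay between 0.640 and 2.38 CPM, all with overlapping groups.

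Among 5 titin and M-band members, 4 were measured. TTN had 98.0 and 123 CPM in the scrambled libraries and 141, 178 and 162 CPM after knockdown. The lowest knockdown library was above the highest control. The means were 111 ± 17.9 (SD, n = 2) and 161 ± 18.7 CPM (SD, n = 3), and the log2 fold change was 0.54 with a standard error of 0.10, a 95% interval of 0.33 to 0.75 and an edgeR adjusted p of 0.00643. OBSL1, an obscurin-like protein that binds titin and myomesin at the M-band, had 281 and 230 against 221, 236 and 239 CPM, which overlapped. The M-band crosslinkers were scarce, with 1.30 and 1.11 against 0.804, 1.21 and 1.04 CPM for MYOM1. MYOM2 had 1 and 7 counts against 14, 11 and 5, and a second row of the same gene held 18 and 18 against 14, 17 and 27. With both rows summed its log2 fold change was 0.39, against 1.27 for the first row alone, and neither was called.

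KLHL41, 1 of 4 assembly and turnover members, had 100.5 and 110 CPM in the scrambled libraries and 139, 129 and 131 CPM after knockdown. The groups did not overlap. The means were 105 ± 6.71 (SD, n = 2) and 133 ± 5.29 CPM (SD, n = 3), a log2 fold change of 0.33 with a standard error of 0.077, a 95% interval of 0.17 to 0.49 and an edgeR adjusted p of 0.0185. SMYD1, a methyltransferase required for myosin assembly, had 2.78 and 3.47 against 4.02, 4.20 and 4.01 CPM, without overlap and not called (edgeR adjusted p 0.218). UNC45B, the myosin chaperone, lay below 1 CPM with overlapping groups.

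**Figure D2:**
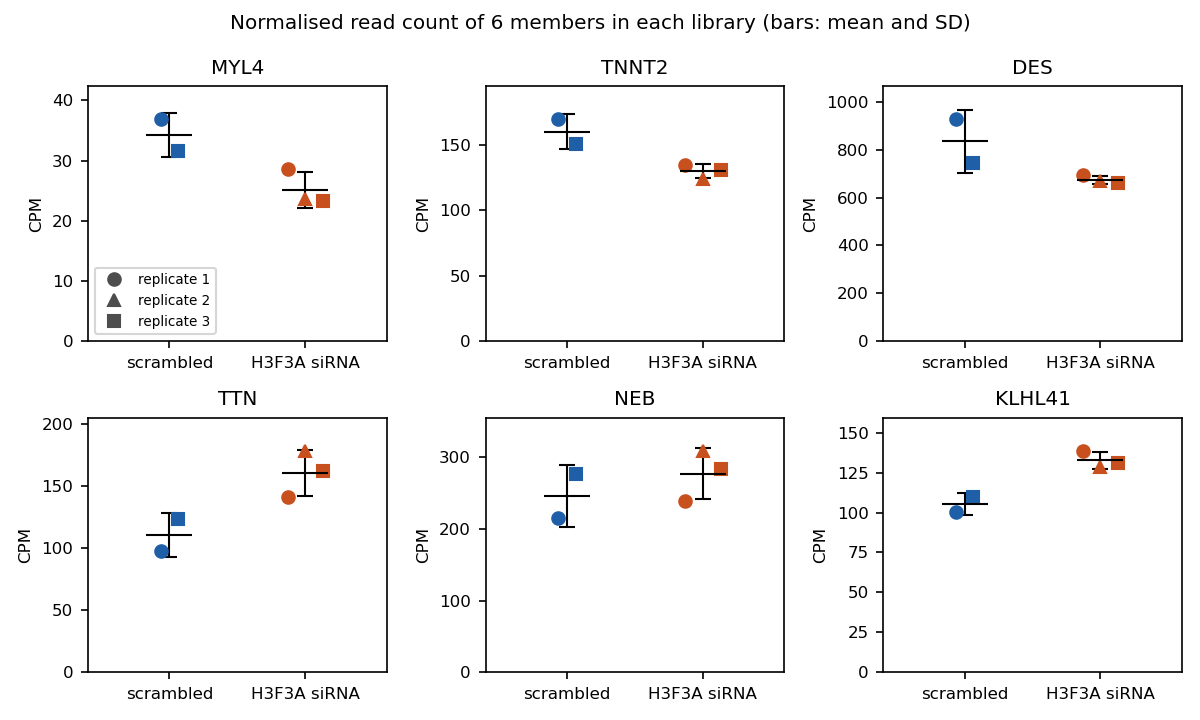
Normalised read count in CPM of 6 members in each library, with the mean and SD of 2 scrambled and 3 H3F3A siRNA libraries. MYL4, TNNT2 and DES lie lower and TTN and KLHL41 higher in all 3 knockdown libraries, DES without passing the test, while NEB overlaps.

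No Z-disc gene passed the test: 9 of 14 members were measured and none was called in either direction, with 2 at an unadjusted p under 0.05 and a median log2 fold change of -0.03. TCAP, the cap that joins titin ends at the Z-disc, had 3.84 and 3.91 against 3.12, 2.89 and 2.69 CPM, without overlap (edgeR adjusted p 0.173). XIRP1, an actin-binding repeat protein, had 1.06 and 1.41 against 0.570, 0.620 and 1.10 CPM (edgeR adjusted p 0.256). NEXN, an actin-binding Z-disc protein, was the most abundant of the list with 35.7 and 38.3 against 38.2, 34.3 and 36.6 CPM. MYOZ2, which links alpha-actinin to calcineurin, had 10.3 and 11.0 against 13.3, 10.5 and 11.4 CPM. LDB3, CSRP3, MYOZ1, NEBL and XIRP2 had at most 1.75 CPM in any library and were not called.

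The muscle intermediate filament genes gave the value nearest the threshold. DES, whose product desmin links neighbouring Z-discs, had 928 and 742 CPM in the scrambled libraries and 693, 671 and 661 CPM in the knockdown libraries. The controls lay above all knockdown libraries but far from each other. The means were 835 ± 131 (SD, n = 2) and 675 ± 16.4 CPM (SD, n = 3), with a log2 fold change of -0.31, a 95% interval of -0.48 to -0.13 and an edgeR adjusted p of 0.0501, just outside the threshold. SYNM, the desmin partner synemin, had 70.9 and 69.5 against 70.9, 79.2 and 86.2 CPM, a log2 fold change of 0.17 that was not called.

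**Figure D3:**
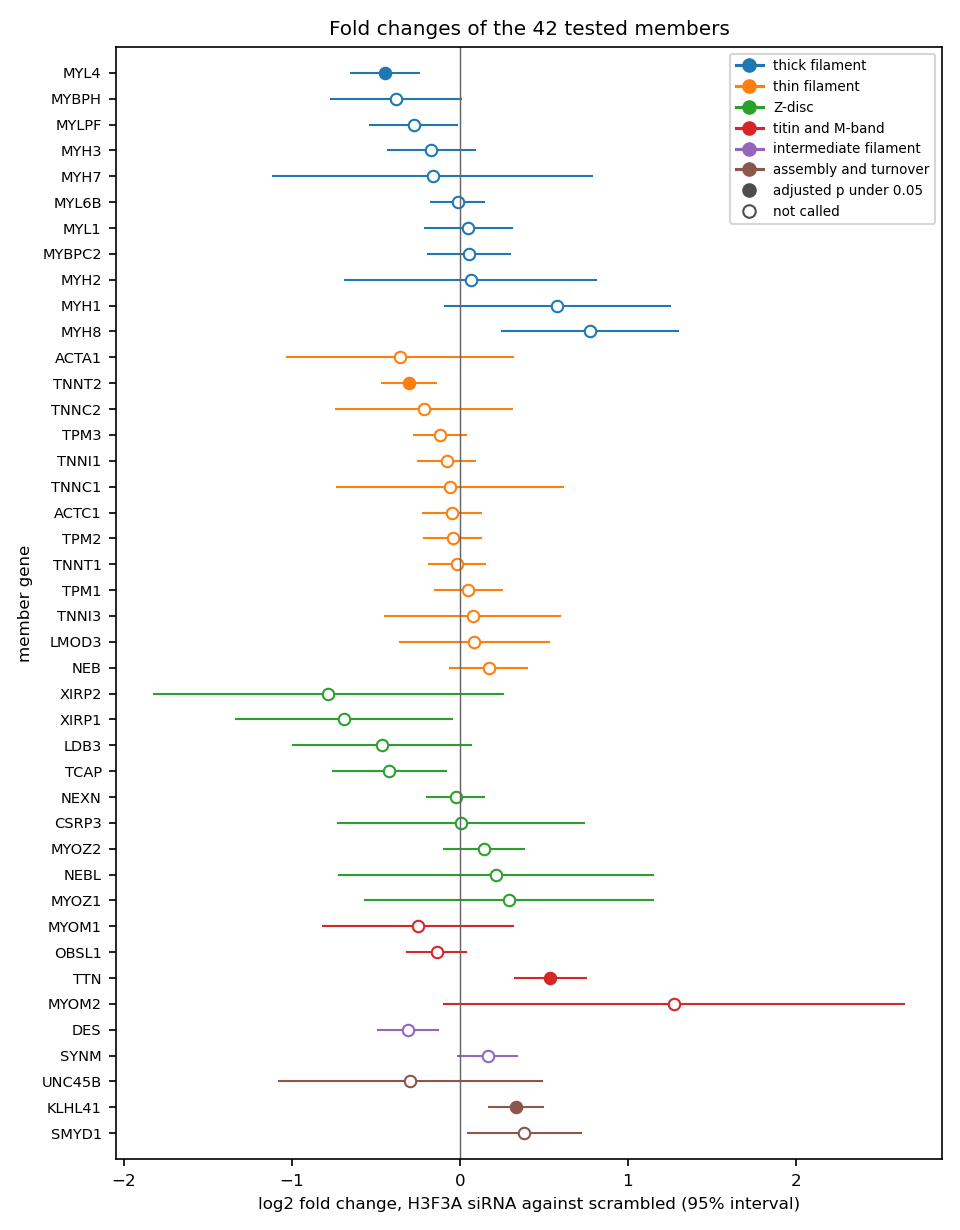
Log2 fold change of each of the 42 measured members, H3F3A siRNA against scrambled, with its 95% interval, coloured by place in the sarcomere. Filled points mark the 4 members with an adjusted p under 0.05. The widest intervals belong to genes near or below 1 CPM.

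The 17 members below the filter were MYH4, MYH6, MYL2, MYL3, MYBPC1, MYBPC3, ACTA2, TNNI2, TNNT3, LMOD2, ACTN2, ACTN3, MYOZ3, MYOT, NRAP, MYOM3 and TRIM63. None exceeded 9 counts in any library. They include the ventricular light chains MYL2 and MYL3, the cardiac heavy chain MYH6 and both sarcomeric alpha-actinins, the Z-disc crosslinkers of thin filaments. ACTN2 had 0 and 2 counts in the scrambled and 6, 6 and 6 in the knockdown libraries, too few to test. TNNI2, the fast troponin I, was at 0 in all libraries, where a limit of 3 counts corresponds to 0.0971 to 0.103 CPM. TNNI2 and TNNT3 each have a second row in the table, so reads that match both can be lost as multimapping and a low count there is uncertain.

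By isoform, the 7 developmental or fetal members were all measured, and both called light chain and troponin T genes belong to them. Of these 7, 2 were called lower and none higher, against 2.69% of all tested genes called lower, and the median log2 fold change was -0.17. The 7 were MYH3, MYH8, MYL4, MYL6B, ACTC1, TNNT2 and MYBPH. This grouping was a choice made here, and the place of MYL6B and MYBPH in it is uncertain. Of the 7, 6 lay below 0, as did 7713 of the 15859 tested genes. MYH8 lay above 0, at 0.78 without overlap, and was not called (edgeR adjusted p 0.0957). MYL6B is also expressed in slow and nonmuscle cells, and its log2 fold change of -0.01 became 0.11 with GC correction. Of 13 slow or cardiac members 8 were measured, none was called and the median was -0.04. Of 12 adult fast or adult skeletal members 8 were measured, none was called and the median was 0.05. The differences between these medians were not tested.

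Shares within a family compare isoforms in the same library. MYL4 made up 15.5% and 14.7% of the essential light chain CPM per kb in the scrambled libraries and 12.5%, 11.3% and 10.9% in the knockdown libraries, and MYL6B 81.2% and 81.7% against 83.5%, 85.2% and 85.1%. TNNT2 made up 10.1% and 10.4% of troponin T against 8.55%, 8.46% and 8.66%. MYL4 and TNNT2 thus had a smaller share in every knockdown library than in either control. MYL6B, grouped here with the developmental members as well, had a larger share in every knockdown library. The developmental members therefore did not all move the same way. Within the heavy chains MYH3 held 71.8% in both controls and 65.8%, 57.7% and 61.2% after knockdown, while MYH8 held 11.3% and 10.1% against 17.5%, 19.8% and 15.6%. The heavy chain shares rest on few reads, with 278 counts over the family in the smallest library. Tropomyosin shares overlapped, with TPM2 at 67.6% and 64.5% against 67.3%, 67.1% and 66.8%, and ACTC1 held over 99% of muscle actin throughout. The shares are descriptions without a test, since 2 against 3 libraries cannot reach an exact permutation p below 0.05.

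**Figure D4:**
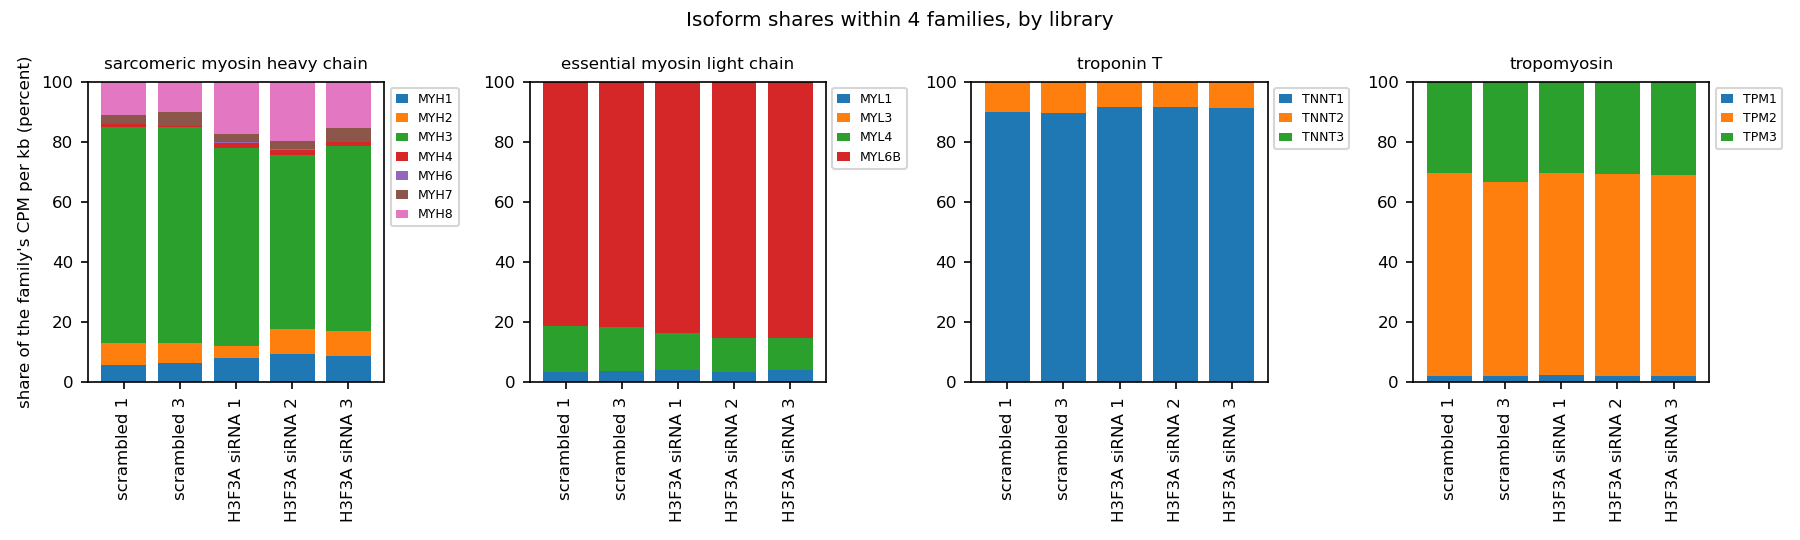
Share of each isoform in the summed CPM per kb of its family, in percent, for each library. MYL4 goes from 15.5% and 14.7% to between 10.9% and 12.5% of essential light chains, TNNT2 from 10.1% and 10.4% to between 8.46% and 8.66% of troponin T, and the tropomyosin bars overlap.

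Fold changes followed GC content across all genes, and this touches every value above. Spearman's rho between log2 fold change and transcript GC content was -0.52 over all genes with a transcript model and -0.44 over the measured members, whose points share the same libraries. The first scrambled library stood apart, with a GC slope of 0.14 log2 per 10 percentage points, against -0.01 in the other scrambled library and -0.06, -0.04 and -0.04 in the knockdown libraries. The rho with transcript length was 0.13 over all genes and 0.24 over the members.

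After each library was corrected for its GC trend, 2.11% of all genes were called, 1.65% as lower and 0.467% as higher, and MYL4, TNNT2 and KLHL41 were among them. MYL4 then had a log2 fold change of -0.39 (edgeR adjusted p 0.0279), TNNT2 of -0.23 (edgeR adjusted p 0.0339) and KLHL41 of 0.23 (edgeR adjusted p 0.032). TTN was no longer called, at 0.47 (edgeR adjusted p 0.0754). DES went from -0.31 to -0.14 (edgeR adjusted p 0.303), and the median of all genes in its GC class, 1 of 10 equal ones, was -0.23. OBSL1, with the highest GC content of those plotted, 66.5%, went from -0.14 to 0.09.

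TTN is the longest gene measured in the set, with a transcript model of 101518 bases, and NEB follows at 26202 bases. Both were lowest in the replicate 1 library of their group, and the length slopes of those libraries were -0.04 and -0.01 log2 per doubling, against 0.02, 0.02 and 0.01 in the others. With a length correction TTN had a log2 fold change of 0.37 (edgeR adjusted p 0.0039), and with GC and length together 0.41 (edgeR adjusted p 7.37e-05). Only 28 tested genes exceed 20 kb, so the trend has few genes near TTN.

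**Figure D5:**
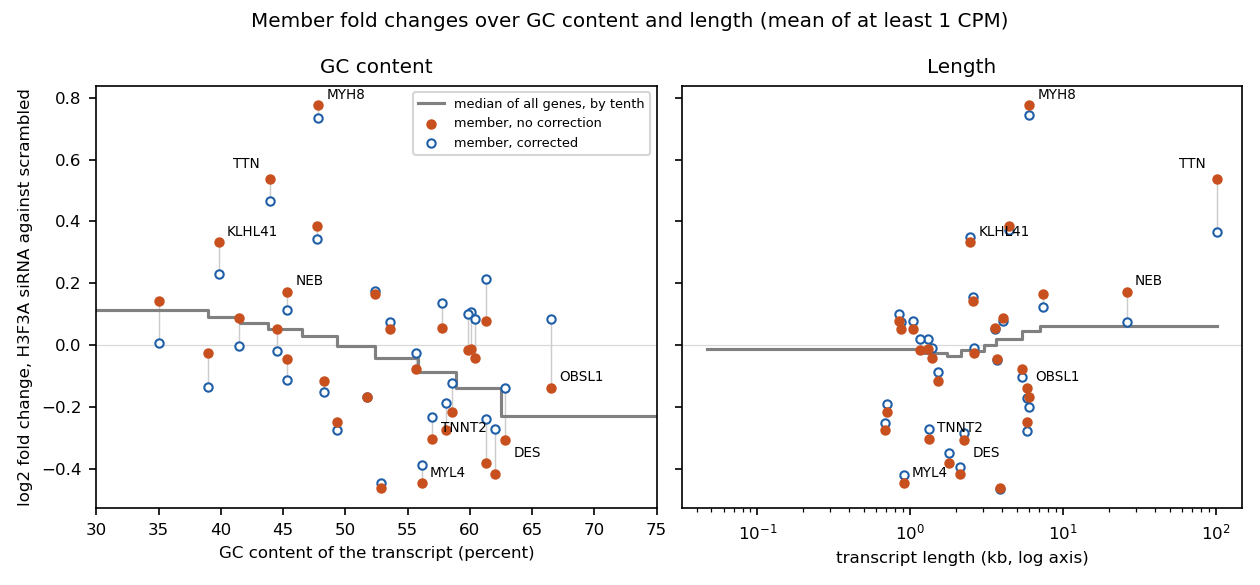
Log2 fold change of the 30 members with a mean of at least 1 CPM against transcript GC content in percent (left) and length in kb on a log axis (right), before (filled) and after (open) correction for the quantity on the axis. The grey line is the median of all genes in each of 10 equal classes. DES moves toward 0 with GC content and TTN with length.

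Pairs of members were also compared within each library, with partners of like GC content or family that were chosen after the values were seen. The first gene of each pair was a called member or DES, the value nearest the threshold. The ratios therefore restate the fold changes above and are no separate support for them. TTN and NEB differ in length, with 101518 and 26202 bases. The part of GC content or length in the ratios was not tested. For every 100 counts of NEB there were 45.6 and 44.5 counts of TTN in the scrambled libraries and 59.2, 57.7 and 57.2 in the knockdown libraries. The spread within each group was smaller than for either gene alone. TNNT2 had 12.9 and 13.3 counts per 100 of TNNT1 against 10.7, 10.6 and 10.8, and MYL4 had 13.2 and 12.5 counts per 100 of MYL6B against 10.4, 9.26 and 8.90. DES had 95.1 and 88.6 counts per 100 of TPM2 against 75.1, 79.7 and 75.3. The GC contents are 44.0% and 45.4% for TTN and NEB, 57.0% and 59.9% for TNNT2 and TNNT1, 56.1% and 60.1% for MYL4 and MYL6B, and 62.9% and 60.4% for DES and TPM2.

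All 4 calls depended on single libraries. Without scrambled replicate 1 the log2 fold changes were -0.34 for MYL4, -0.22 for TNNT2, 0.38 for TTN and 0.27 for KLHL41, with edgeR adjusted p of 0.205, 0.226, 0.213 and 0.124. Without H3F3A siRNA replicate 1 they were not called either (edgeR adjusted p 0.0722, 0.159, 0.0591 and 0.172). Leaving out H3F3A siRNA replicate 2 ended the calls of MYL4, TNNT2 and KLHL41 (edgeR adjusted p 0.0858, 0.194 and 0.068), and leaving out replicate 3 those of TNNT2 and KLHL41 (0.101 and 0.0552). Without scrambled replicate 3 the log2 fold changes of DES and OBSL1 were -0.46 and -0.27. DES was called in 6 of 20 alternative settings and not called in 14. With length correction on all libraries it was called at -0.28 (edgeR adjusted p 0.0333).

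MYL4 had no promoter entry in the reference used. The promoters of the other 3 called members are shown because E-boxes, the sites of MYOD1-type factors, and MEF2 sites are the classic elements of muscle genes. Each is the 250 bases before the annotated start, from RefSeq on GRCh38.p14, 5′ to 3′ on the strand of the gene, with E-boxes (CANNTG) and MEF2 sites in capitals. TTN lies at chr2:178807424-178807673 (minus strand), KLHL41 at chr2:169509452-169509701 (plus strand) and TNNT2 at chr1:201377681-201377930 (minus strand).
TTN: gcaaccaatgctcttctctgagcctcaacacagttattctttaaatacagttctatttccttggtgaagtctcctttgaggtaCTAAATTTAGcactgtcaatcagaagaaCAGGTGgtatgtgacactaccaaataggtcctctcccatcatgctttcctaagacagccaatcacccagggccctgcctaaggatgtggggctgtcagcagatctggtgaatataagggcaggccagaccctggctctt
KLHL41: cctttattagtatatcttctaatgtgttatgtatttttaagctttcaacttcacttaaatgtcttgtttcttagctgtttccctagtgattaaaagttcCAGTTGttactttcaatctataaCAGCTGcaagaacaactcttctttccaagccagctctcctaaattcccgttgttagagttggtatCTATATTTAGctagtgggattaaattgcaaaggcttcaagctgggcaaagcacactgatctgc
TNNT2: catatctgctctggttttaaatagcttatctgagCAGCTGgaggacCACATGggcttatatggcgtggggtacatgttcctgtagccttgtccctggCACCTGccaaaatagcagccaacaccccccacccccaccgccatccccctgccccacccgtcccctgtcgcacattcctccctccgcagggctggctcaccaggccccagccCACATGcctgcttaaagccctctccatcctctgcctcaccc
The TTN window holds 1 E-box and 1 MEF2 site, KLHL41 holds 2 E-boxes and 1 MEF2 site, and TNNT2 holds 4 E-boxes and no MEF2 site. The start used in Rh41 cells was not measured here.

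Promoter entries matched 42 of the 59 members, 29 of them measured, and both strands were searched. E-boxes were present in 24 of those 29 (82.8%), against 54.3% of 11677 tested genes and 62.2% of all 27305 promoters. MEF2 sites were in 7 (24.1%), against 1.62% of tested genes and 2.9% of all promoters. CArG boxes, bound by SRF, were in 4 (13.8%), against 0.993% and 1.14%. The letters TATAAA were in 8 (27.6%), against 5.78% and 11.1%, and can overlap a MEF2 site. These are matches of letters and not measured binding.

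Related genes outside the set were counted from lists chosen alongside it. Of 18 myogenic regulators 14 were measured and 2 were called lower, SRF, the serum response factor, and TCF3, the E-protein partner of MYOD1, and none higher. For this list and those that follow, the share of all tested genes called lower was 2.69%. SRF had 100.2 and 100.5 CPM in the scrambled and 75.6, 79.6 and 82.8 CPM in the knockdown libraries, a log2 fold change of -0.34 (edgeR adjusted p 0.0147). TCF3 changed by -0.31 log2 (edgeR adjusted p 0.0391). With GC correction SRF was at -0.21 (edgeR adjusted p 0.0917) and TCF3 at -0.17 (edgeR adjusted p 0.138), so neither was called. With GC and length correction together SRF was called (edgeR adjusted p 0.0438) and TCF3 was not (0.0552). Without scrambled replicate 1 they were at -0.34 and -0.18. Without H3F3A siRNA replicate 1 neither was called (edgeR adjusted p 0.16 and 0.23). MYOD1 was not called, at -0.29 (edgeR adjusted p 0.0654) and at -0.08 with GC correction (edgeR adjusted p 0.616), nor was MYOG, at -0.03 and 0.05.

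Of 15 nonmuscle counterparts of the contractile proteins 13 were measured, with 1 lower and none higher. That gene was ACTN1, a nonmuscle alpha-actinin, at -0.29 log2 (edgeR adjusted p 0.0414), and -0.24 with GC correction (edgeR adjusted p 0.0314). Without H3F3A siRNA replicate 1 ACTN1 was not called (edgeR adjusted p 0.203), and without scrambled replicate 1 it was at -0.21. Of 42 further sarcomere and costamere genes 38 were measured, with 2 lower, none higher and a median log2 fold change of -0.06. Those were SPEG, a striated muscle kinase, at -0.35 (edgeR adjusted p 0.0271), and PDLIM7, a Z-disc and actin adaptor, at -0.32 (edgeR adjusted p 0.0391). With GC correction they were at -0.13 and -0.12 and were not called, while HSPB7, a muscle small heat shock protein, was called higher at 0.36 (edgeR adjusted p 0.00927) from 0.25 (edgeR adjusted p 0.0989).

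Reads from genes on opposite strands cannot be separated in the unstranded counts. Summing the stranded columns raised NEXN from 5445 to 18201 counts over the 5 libraries, MYOZ2 from 1680 to 2652 and TPM1 from 3266 to 4234, so their CPM values above are lower than strand-summed counts give. Of 36 members with at least 100 counts, these 3 exceeded a ratio of 1.2, and the highest of the others was 1.08. With both columns NEXN had a log2 fold change of 0.09 and remained uncalled.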

How the data were processed

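Per the labels' protocols, poly-A RNA from TRIzol extracts went into NEBNext Ultra libraries. The authors deposited raw counts, with 1 unstranded and 2 stranded columns for each gene. The submitters' processing notes name STAR 2.5, HTSeq 0.6.1 and the hg19 build. The stranded columns split reads evenly (49.9% to 50.1%), and the unstranded counts were used. Summary lines, which name no gene, were left out of library sizes; 9.17% to 10.2% of reads fell in no annotated feature. Numbered copy rows (4791 in all) exist for 3 members, and no coordinates were taken from the files. H3F3A and H3F3B stand for the rows H3-3A and H3-3B.

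Counts were tested with edgeR 4.0.16 (R 4.3.3): filterByExpr (minimum count 10, total 15), TMM, robust quasi-likelihood, no covariates, Benjamini-Hochberg over 15859 genes. CPM is scaled by TMM library size. The biological coefficient of variation was 6.53%. The script was tested on simulated counts with a single fixed dispersion and at most a GC trend in 1 control library. Other differences between libraries were not simulated. Standard errors come from the fold change and F statistic. Transcript length and GC content came from 1 GENCODE transcript per gene on GRCh38, with a model for all 42 measured members. GC and length corrections entered a smooth trend per library (5 degrees of freedom) as offsets. Alternatives used limma 3.58.1 and DESeq2 1.42.0. Whether replicates came from separate cultures is not in the labels, and p-values reflect only variation among the 5 libraries, possibly technical.

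Members with a call, a mean of at least 20 CPM or an unadjusted p under 0.05 are given per library. Members and lists were chosen with earlier results of these data known.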

Additional observations from a re-analysis of the deposited data

How the results depend on the processing

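Over 20 alternatives the 4 called members kept their direction, and of the 38 uncalled ones 3 (DES, OBSL1 and SYNM) were called in some setting. The sign of an uncalled member is not a result, and 19 of the 38 changed it in at least 1 setting. Against 427 genes lower and 80 higher over all genes, leaving out 1 library at a time gave 9 to 1737 lower and 6 to 744 higher, and 0 to 4 members lower and 0 to 2 higher against 2 and 2. Where a scrambled library was left out, the remaining 1 was assumed to vary like the other group. GC correction gave 261 genes lower, and 1 member higher. GC and length correction gave 144 genes higher, and no filter on low counts 153 higher. GC correction without scrambled replicate 1 gave 63 genes lower and 17 higher, and 0 members in either direction. Upper quartile scaling moved the split to 323 lower and 116 higher. Same-numbered libraries correlated at 0.112 and 0.0487 in their deviations from the group mean, over only 2 shared numbers, so the numbers were not taken to pair the samples. A replicate block gave 1 member lower, TNNT2 being lost (edgeR adjusted p 0.122), with 476 genes lower and 98 higher. The block with GC correction gave 843 lower and 332 higher. The cause of these differences was not tested.

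Shares depend on the length used. By raw counts and by coding length, MYH3 was 71.6% and 71.5% in the scrambled libraries against 71.8%. MYL4 was 11.1% and 11.6% in the scrambled libraries against 15.1%, and 8.46% and 8.80% after knockdown against 11.6%. TNNT2 was 11.6% and 11.2% against 10.3%, and 9.67% and 9.36% after knockdown against 8.56%. TPM2 was 65.5% and 65.6% after knockdown against 67.1%. Per kb of coding sequence the scrambled means were 824 CPM for actin, 4.70 for troponin C and 1660 for troponin T. The sums of both strands and of numbered copies were added after seeing the data. Depth limits the 12 measured members under 1 CPM, where intervals are wide.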
